A study of Arabidopsis thaliana with 128 samples.

Results

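The 150 transcripts described here are those whose share of the reads in wild-type Arabidopsis thaliana seedlings fell after transcription was blocked and then held or rose again most. They were chosen from WT libraries alone. Levels are in RPM, a gene's reads scaled to the total of its library. A nuclear gene had to average at least 5 RPM at 0 min and no more than 0.7 of that level at 60 min, and the 150 genes with the highest ratio of mean WT RPM at 480 min to mean WT RPM at 60 min were taken. 2969 of 28496 nuclear genes met the level and fall conditions. All 150 members are protein-coding, all 150 passed the filter of a group mean of at least 1 RPM and 70 have a gene symbol. Their WT means at 0 min ran from 5.04 to 154 RPM, with a median of 10.8 RPM. At the threshold, the last 2 members were HK3, with a ratio of 0.903, and AT5G41110, with 0.901, and GRXS13 (0.901) and ERF104 (0.899) lay just outside.

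Whole seedlings, 5 d old, were held in 1 mM cordycepin, and RNA was sequenced before the drug and at 7.5, 15, 30 and 60 min and 120, 240 and 480 min of it, and 4 libraries stand in each of 32 groups. The vcs sov double mutant is vcs-7 in the Col-0 background, the vcs mutant is vcs-7 that carries SOV of Landsberg erecta as a transgene, sov is Col-0 itself, whose own SOV allele is not functional, and WT is Col-0 with the SOV transgene. All groups share the Col-0 background, constant light at 22 °C, sucrose in the medium and the drug, and each genotype has its own 0 min libraries. At 0 min the VCS transcript averaged 9.13 ± 0.56 RPM in vcs sov, 4.49 ± 0.34 RPM in vcs, 66.7 ± 3.62 RPM in sov and 66.2 ± 9.28 RPM in WT (SD, n = 4 each). SOV RNA, which both the endogenous and the transgene copy can give, averaged 182 ± 14.9 RPM in vcs sov, 516 ± 41.2 RPM in vcs, 21.0 ± 4.95 RPM in sov and 98.5 ± 14.0 RPM in WT (SD, n = 4 each). Libraries held 11.5 to 37.3 M reads in genes, so that 3 reads equal 0.0803 to 0.261 RPM. The labels say that tubes of replicate 3 at 60 min of vcs sov and of vcs had been exchanged and that this was corrected, and each of these 2 libraries correlated best with the genotype it is labelled as. Each replicate pooled 50 to 60 seedlings per genotype, and no source says that replicates were grown separately, so p-values measure the spread between these samples. In such pools, fewer cells of a type and less RNA per cell cannot be told apart.

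Cordycepin is an adenosine analogue that ends RNA chains, so after it is added transcripts are expected to be lost at a rate set by their decay. VARICOSE (VCS) is the scaffold of the decapping complex, which opens the 5′ end of an mRNA to decay, and SUPPRESSOR OF VARICOSE (SOV) is a cytoplasmic exoribonuclease that works from the other end. RPM values are shares of the reads of a library and not amounts: a transcript that is lost more slowly than the rest of the RNA gains share without being made. Reads of nuclear genes made up 67.2% of reads in vcs sov, 52.9% in vcs, 40.0% in sov and 39.1% in WT at 480 min, against 73.5% in vcs sov, 63.2% in vcs, 51.3% in sov and 49.1% in WT at 0 min. All levels and changes below are in this relative unit unless another scaling is named.

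In WT, 101 of the 150 members had a higher mean at 480 min than at 60 min, and the median ratio was 1.07. In 32 the mean at 480 min was at least 1.5 times that at 60 min, in 12 at least 2 times, and 12 ended above their 0 min mean. So on RPM a rise of 1.5 times or more after 60 min was found in 32 members, and the rest held near their 60 min level. In the authors' deposited means the median WT ratio of 480 to 60 min was 0.82, and 13 members reached 1.5. The median WT change (log2) was 0.08 on RPM and 0.31 with RPM over nuclear genes. It was -0.15 with libraries scaled to 50 reference genes and 0.935 by edgeR, scalings that are described below. Over all members the median WT level relative to 0 min was 0.868 at 7.5 min, 0.595 at 30 min, 0.496 at 60 min, 0.523 at 120 min, 0.535 at 240 min and 0.532 at 480 min. Over the other 2819 genes that met the same level and fall conditions it was 0.554 at 60 min and went on falling, with 0.202 at 480 min. All 4 libraries at 480 min lay above all 4 at 60 min in 10 members in vcs sov, 3 in vcs, 30 in sov and 32 in WT, beside 4.09%, 3.32%, 3.36% and 3.27% of all genes tested, and the WT count follows from how the members were chosen. The lowest WT mean fell at 30 min in 9 members, at 60 min in 55, at 120 min in 28, at 240 min in 32 and at 480 min in 26.

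**Figure D1:**
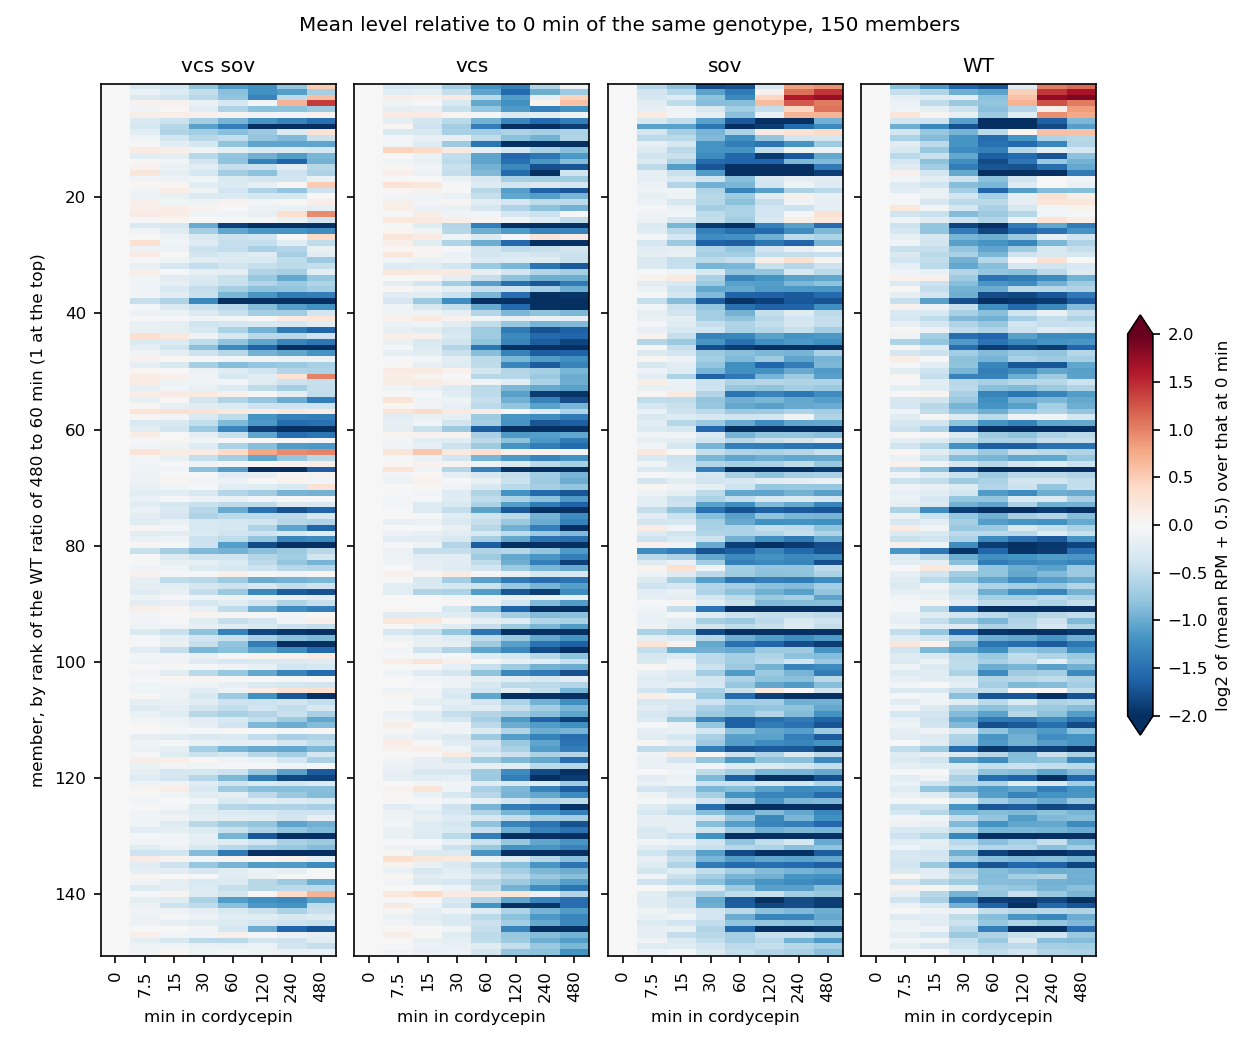
Mean level of the 150 members relative to 0 min of the same genotype, as log2 of (mean RPM + 0.5), by time in cordycepin (columns) and by rank of the WT ratio of 480 to 60 min (rows, rank 1 at the top), in vcs sov, vcs, sov and WT. Colours end at 2 in either direction. At 480 min 22 rows in vcs sov, 4 in vcs, 10 in sov and 12 in WT lie above their 0 min mean, and in vcs the lowest mean falls at 480 min in 97 rows.

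CRF5 and CRF6, cytokinin response factors of the ERF family of transcription factors, ranked 1 and 2, with WT ratios of 480 to 60 min of 9.64 and 7.89. The next 4 have no symbol and are named although the rule for names takes only genes with one: AT2G18193 (7.47) and AT1G43910 (3.08) encode P-loop nucleoside triphosphate hydrolases and AT5G14730 (3.90) and AT5G66052 (3.53) uncharacterized proteins, by their RefSeq descriptions. They, and every other gene given by its locus number alone except AT5G41110, were picked after their values were seen. PUB19, a U-box ubiquitin ligase, had a ratio of 2.47, and EXO70H1, a subunit of the exocyst that tethers secretory vesicles, 2.33. ZF2, a C2H2 zinc finger repressor, had 2.11, OXS3, named for oxidative stress tolerance, 2.09, and BCS1, an AAA ATPase of the mitochondrial outer membrane, 2.07.

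The promoters of CRF5, CRF6, AT2G18193 and PUB19 are printed because these 4 stand among the top 8 ranks and share a stretch of letters. Each runs from 250 bases before to 50 bases after the annotated gene start, 5′ to 3′ on the strand of the gene, from the TAIR10.1 assembly of RefSeq. Capitals mark the G-box CACGTG and the abscisic acid response element core ACGTGTC, searched on both strands, which overlap where they stand together. The windows are chr2:19011212-19011511 on the plus strand for CRF5, chr3:22804748-22805047 on the plus strand for CRF6, chr2:7919296-7919595 on the minus strand for AT2G18193 and chr1:22198016-22198315 on the plus strand for PUB19.
CRF5: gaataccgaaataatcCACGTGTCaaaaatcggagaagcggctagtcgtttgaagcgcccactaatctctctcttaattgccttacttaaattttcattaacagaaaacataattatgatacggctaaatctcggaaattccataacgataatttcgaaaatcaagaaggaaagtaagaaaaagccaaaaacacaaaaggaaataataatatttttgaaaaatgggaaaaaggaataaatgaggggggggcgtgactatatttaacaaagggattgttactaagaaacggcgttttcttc
CRF6: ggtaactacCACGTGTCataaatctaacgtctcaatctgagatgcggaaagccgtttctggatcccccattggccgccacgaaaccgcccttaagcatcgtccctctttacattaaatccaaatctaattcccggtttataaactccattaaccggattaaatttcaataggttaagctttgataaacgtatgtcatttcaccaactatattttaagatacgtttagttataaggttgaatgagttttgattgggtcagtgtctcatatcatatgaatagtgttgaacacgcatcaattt
AT2G18193: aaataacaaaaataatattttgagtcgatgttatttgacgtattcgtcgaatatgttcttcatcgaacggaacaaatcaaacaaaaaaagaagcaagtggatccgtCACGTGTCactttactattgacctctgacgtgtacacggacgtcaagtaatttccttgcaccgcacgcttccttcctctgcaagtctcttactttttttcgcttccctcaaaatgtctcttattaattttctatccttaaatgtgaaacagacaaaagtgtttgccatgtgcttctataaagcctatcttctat
PUB19: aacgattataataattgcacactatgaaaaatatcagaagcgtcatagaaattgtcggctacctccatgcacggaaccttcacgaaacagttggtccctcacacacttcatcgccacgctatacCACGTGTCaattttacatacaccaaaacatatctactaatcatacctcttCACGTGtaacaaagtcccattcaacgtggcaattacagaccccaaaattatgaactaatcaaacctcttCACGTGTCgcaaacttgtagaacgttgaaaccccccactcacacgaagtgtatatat
The joined form CACGTGTC begins 234 bases before the start in CRF5, 241 in CRF6, 144 in AT2G18193 and 126 in PUB19, and PUB19 holds it again 7 bases before the start.

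CRF5 had 13.9, 13.3, 13.2 and 15.1 RPM at 0 min, 7.26, 6.31, 5.50 and 5.06 RPM at 60 min and 34.3, 12, 14.6 and 19.2 RPM at 480 min in vcs sov. In vcs it had 13.9, 15.1, 16.2 and 12.2 RPM at 0 min, 4.79, 5.24, 7.4 and 6.44 RPM at 60 min and 15.3, 12, 16.1 and 9.68 RPM at 480 min. In both, all 4 libraries at 480 min stood above all 4 at 60 min, and the ranges at 480 and 0 min overlapped. In sov it had 4.60, 4.04, 6.28 and 7.04 RPM at 0 min, 0.959, 1.11, 1.44 and 1.66 RPM at 60 min and 10.3, 9.46, 11.5 and 11.9 RPM at 480 min. In WT it had 3.65, 4.33, 6.68 and 5.68 RPM at 0 min, 1.47, 0.596, 1.13 and 1.66 RPM at 60 min and 11.3, 8.81, 12.6 and 14.1 RPM at 480 min. In sov and in WT every library at 480 min lay above every library at 0 min. The change from 60 to 480 min on the log2(RPM + 0.5) scale, which understates the change of low genes, was 1.55 in vcs sov, 1.08 in vcs and 2.67 in sov (SE 0.22 each; adjusted p = 4.21e-09, 9.04e-06 and 6.73e-20 by limma). It was smaller in vcs than in sov (difference -1.58, adjusted p = 7.94e-05 by limma) and smaller in vcs sov than in sov (difference -1.12, adjusted p = 0.00246 by limma).

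On RPM CRF6 started higher in the mutants of VCS, and at 480 min its ranges overlapped between the genotypes. These are shares of all reads, and at 480 min nuclear reads made up 67.2% in vcs sov, 52.9% in vcs, 40.0% in sov and 39.1% in WT. No test compared CRF6 levels between genotypes at 480 min. CRF6 had 32.5, 33.8, 26.7 and 30.8 RPM at 0 min, 16.8, 18.7, 16.5 and 16.4 RPM at 60 min and 26.8, 13.6, 15.4 and 21.5 RPM at 480 min in vcs sov. In vcs it had 25.5, 25.8, 24.3 and 24.1 RPM at 0 min, 9.24, 11.3, 14.7 and 11.8 RPM at 60 min and 17.8, 14.7, 15.4 and 11.7 RPM at 480 min. The ranges at 480 and 60 min overlapped in both. In sov it had 4.51, 4.87, 8.48 and 6.11 RPM at 0 min, 1.35, 1.77, 2.39 and 2.25 RPM at 60 min and 14.8, 18.0, 16.7 and 18.3 RPM at 480 min. In WT it had 3.94, 5.02, 6.72 and 4.90 RPM at 0 min, 1.58, 2.57, 2.45 and 2.12 RPM at 60 min and 18.1, 13.3, 17.1 and 20.2 RPM at 480 min. All 4 libraries at 480 min exceeded those at both earlier times in sov and in WT. The rise in sov, 2.86 ± 0.18 (log2, SE; adjusted p = 2.60e-28 by limma), was 8.74-fold in mean RPM. The change was 0.13 ± 0.18 in vcs sov (adjusted p = 0.566 by limma) and 0.33 ± 0.18 in vcs (adjusted p = 0.0796 by limma, and 0.0181 with the replicate block). It was called higher in vcs with nuclear RPM (0.54, adjusted p = 0.00425 by limma) and by edgeR in vcs sov and vcs (0.47 and 1.04, adjusted p = 0.00783 and 1.65e-08). On RPM the change was smaller than in sov by 2.73 in vcs sov and by 2.53 in vcs (adjusted p = 5.30e-16 and 5.33e-14 by limma). In both mutants of VCS the lowest CRF6 mean came later, at 120 min. From that time to 480 min CRF6 rose by 0.50 ± 0.18 in vcs sov and 0.83 ± 0.18 in vcs (adjusted p = 0.0198 and 2.64e-05 by limma).

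AT2G18193 had 25.4, 21.3, 13.6 and 13.1 RPM at 0 min, 12.2, 11.9, 9.41 and 8.20 RPM at 60 min and 40.7, 19.7, 23.4 and 29.0 RPM at 480 min in vcs sov. The 4 vcs libraries had 19.9, 16.5, 9.24 and 8.19 RPM at 0 min, 14.4, 7.94, 7.70 and 6.57 RPM at 60 min and 22.7, 18.9, 18.6 and 14.5 RPM at 480 min. The 4 sov libraries had 2.17, 4.46, 7.88 and 6.03 RPM at 0 min, 1.13, 1.86, 1.69 and 2.68 RPM at 60 min and 18.5, 15.6, 20.5 and 19.1 RPM at 480 min. In each of the 3 genotypes all libraries at 480 min were above all at 60 min. The change was 1.36 ± 0.27 in vcs sov, 1.03 ± 0.27 in vcs and 3.05 ± 0.27 in sov (log2, SE; adjusted p = 1.33e-05, 0.000428 and 3.33e-18 by limma). AT5G14730 rose in all 3, by 1.70 ± 0.16 in vcs sov, 1.64 ± 0.16 in vcs and 1.87 ± 0.16 in sov (adjusted p = 2.28e-16, 2.32e-16 and 2.40e-19 by limma). In the same order it rose by 1.80, 1.87 and 2.19 with nuclear RPM and by 2.05, 2.36 and 2.92 by edgeR. On RPM its change differed from that in sov by -0.18 ± 0.23 in vcs sov and -0.23 ± 0.23 in vcs (SE; adjusted p = 0.556 and 0.535 by limma). It ended at 61.3 ± 17.8 RPM in vcs sov, 29.8 ± 3.65 RPM in vcs, 12.7 ± 2.65 RPM in sov and 13.2 ± 2.96 RPM in WT (SD, n = 4 each).

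**Figure D2:**
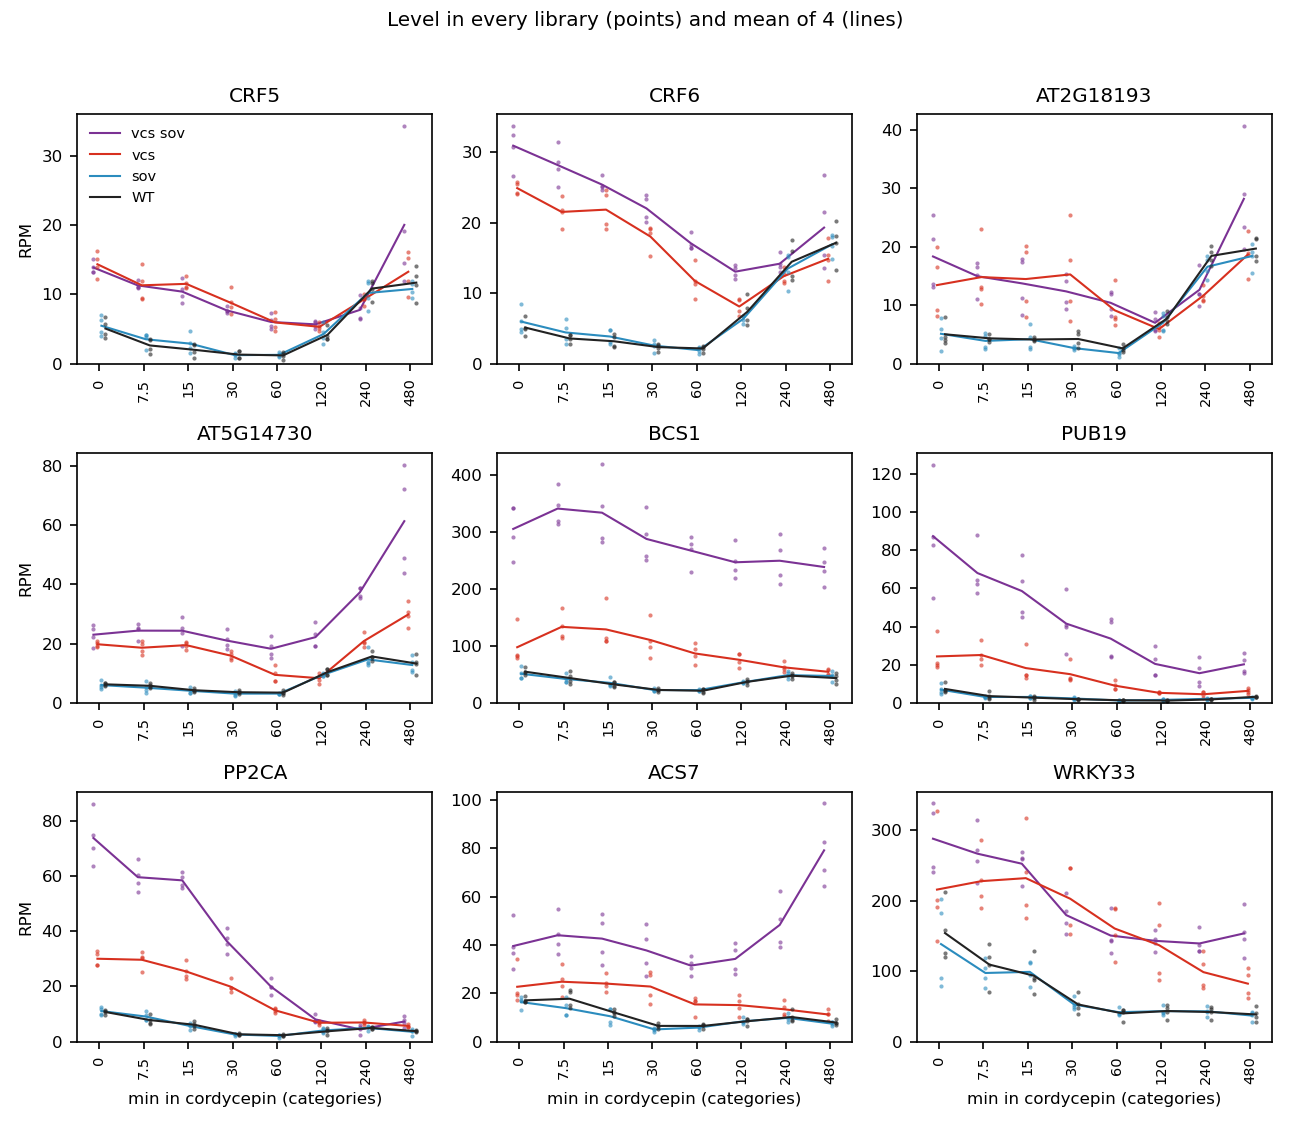
Level (RPM) of 9 members by time in cordycepin (0 to 480 min, spaced as categories), with 1 point a library and lines through the means of 4 libraries, for vcs sov, vcs, sov and WT. CRF5, CRF6 and AT2G18193 turn up after 60 min in sov and WT and after 120 min in vcs and vcs sov, BCS1 and PP2CA turn up in sov and WT and fall in vcs, ACS7 turns up strongly in vcs sov, and WRKY33 stays low from 60 min on in sov and WT.

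Whether the course of WT returns in the other genotypes was tested on their own libraries, none of which chose the members. Among the 150 members, 15 were higher and 47 lower at 480 than at 60 min in vcs sov, 5 higher and 118 lower in vcs, and 36 higher and 18 lower in sov. With the replicate number as a block, the 18 in sov were 29. Of all 20070 genes tested, 8.16% were called higher and 45.2% lower in vcs sov, 4.2% higher and 73.6% lower in vcs, and 4.17% higher and 71.9% lower in sov. The median change of the members was -0.14 in vcs sov, -0.66 in vcs and 0.00 in sov on the log2 scale, beside -0.29, -0.71 and -0.70 over all genes tested. In sov all 150 members changed by more than the median of all genes, in vcs 83 members did so and in vcs sov 97. Under 4 ways of scaling these counts were 150 in sov, 79 to 94 in vcs and 87 to 99 in vcs sov. A scaling moves the members and the median of all genes nearly alike, so the likeness of these counts is no further check. Among the other 2819 genes that met the level and fall conditions, 2135 were lower in vcs sov, 2766 in vcs and 2711 in sov by limma. By rank of the WT ratio, 8 of the first 50 members, 5 of the next 50 and 2 of the last 50 rose in vcs sov, all 5 in vcs were among the first 50, and 34 of the first 50 and 2 of the next 50 rose in sov.

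How many members count as risen depends on the scaling, that is, on what a read share is set against. In vcs sov the number called higher was 17 with RPM computed over nuclear genes, 9 with libraries scaled to 50 reference genes and 48 by edgeR with TMM factors on recovered reads. In vcs it was 7, 4 and 35, and in sov 56, 23 and 141, in the same order of scalings. Shares of all genes tested called higher, in that order, were 12.1%, 1.0% and 26.9% in vcs sov. They were 8.72%, 2.85% and 27.4% in vcs, and 9.16%, 1.31% and 30.3% in sov. The number called lower was 42, 113 and 24 in vcs sov and 93, 124 and 24 in vcs. In sov 5 were lower with nuclear RPM and 55 with the reference genes, and all calls of edgeR were higher. Of all genes, 38.1%, 78.5% and 26.8% were called lower in vcs sov, in the same order of scalings. The shares lower were 62.8%, 75.6% and 35.2% in vcs, and 63.3%, 83.8% and 31.6% in sov. The median change of all genes, which was -0.29 in vcs sov, -0.71 in vcs and -0.70 in sov on RPM, was -0.22, -0.57 and -0.59 with nuclear RPM, -0.63, -0.72 and -0.94 with the reference genes, and 0.00, -0.12 and -0.06 by edgeR (log2). 9 members rose under all 4 scalings in vcs sov, 4 in vcs and 23 in sov, and each of these was also higher at 480 than at 60 min in the group means of the authors' deposited table. In that table, whose values are normalized to 0 min of the same genotype, 14 members were higher at 480 than at 60 min in vcs sov, 5 in vcs, 31 in sov and 39 in WT. Of the 18674 genes in it, 4.51% were higher in vcs sov, 2.39% in vcs, 3.07% in sov and 3.11% in WT. The WT count follows from how the members were chosen. The 23 in sov include CRF5, CRF6, PUB19, EXO70H1, ZF2, BCS1, DOGT1, ABCC3 and PP2CA. In vcs the count of 5 was 3 without replicate 1 and 3 without replicate 2.

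**Figure D3:**
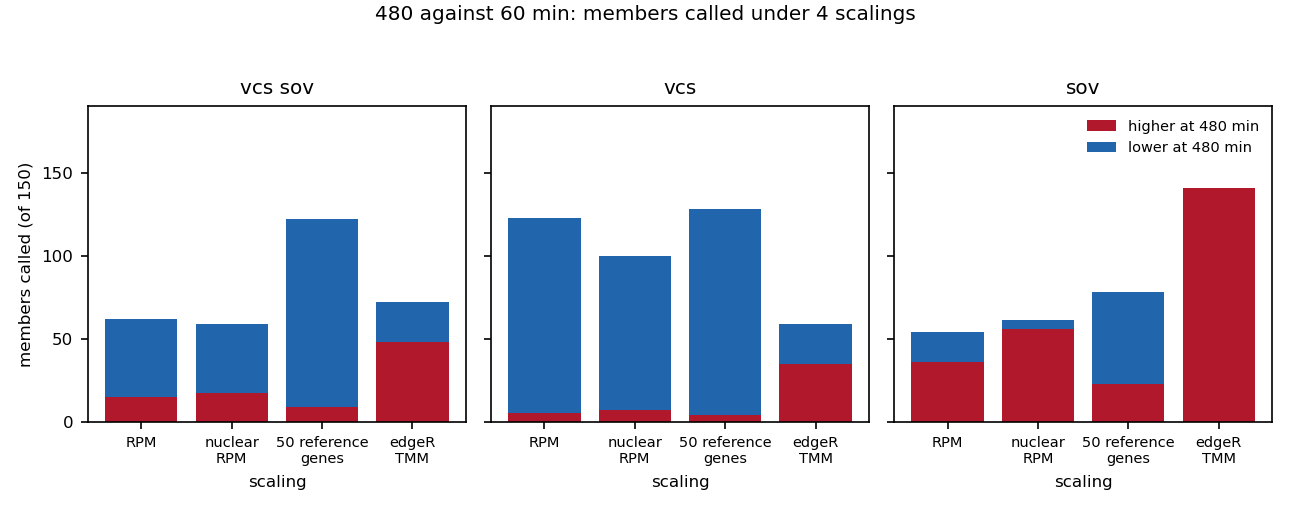
Members called higher (red) or lower (blue, stacked above) at 480 than at 60 min at an adjusted p under 0.05, of 150 (y axis), under 4 scalings (x axis), in vcs sov, vcs and sov. Red reaches 141 in sov under TMM and 23 with the reference genes, and blue leads in vcs under the 3 scalings other than TMM. Of all genes, TMM called 26.9% higher in vcs sov, 27.4% in vcs and 30.3% in sov.

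CRF5, AT2G18193, AT5G14730 and AT1G13340 rose from 60 to 480 min in vcs sov, vcs and sov. EXO70H1, AT1G76600, AT2G39650, AT3G62260 and AT5G05190 rose in vcs sov and sov, and GAT1_2.1, a glutamine amidotransferase-like protein, in vcs and sov. On RPM by limma, 26 members were called higher in sov and in neither mutant of VCS, a count given without the share of all genes. They include ABCC3, a vacuolar transporter of glutathione conjugates, DOGT1, a glucosyltransferase acting on brassinosteroids and the toxin deoxynivalenol, ANAC087, a NAC transcription factor, RHL41, a C2H2 zinc finger of cold and light stress, and NFXL1, a zinc finger regulator of stress responses. RHL41 was also called higher in vcs sov with the replicate block (adjusted p = 0.0163 by limma). By edgeR NFXL1 and RHL41 were higher in vcs sov (0.40 and 0.61, adjusted p = 0.000176 and 4.8e-05) and in vcs (0.40 and 0.64, adjusted p = 0.000164 and 2.22e-05). ANAC087 was higher in vcs (0.42, adjusted p = 0.0369 by edgeR), and ABCC3 and DOGT1 were higher in neither. With the reference genes NFXL1, RHL41 and ANAC087 were not called in sov (adjusted p = 0.222, 0.614 and 0.0547 by limma). ACS7, which makes the precursor of ethylene, CBP60G, a calmodulin-binding activator of salicylic acid synthesis, UBP21, a ubiquitin-specific protease, and AT1G20640, AT2G18210 and AT5G15080 were called higher in vcs sov and in neither of the others, though ACS7 was called in sov too with the replicate block (adjusted p = 0.0195 by limma), with nuclear RPM and by edgeR. A call in 1 genotype and not in another is no test of their difference, which was tested separately.

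BCS1 had 341, 341, 246 and 291 RPM at 0 min, 279, 290, 269 and 229 RPM at 60 min and 271, 247, 203 and 231 RPM at 480 min in vcs sov. In vcs it had 146, 78.3, 83.3 and 81.5 RPM at 0 min, 104, 82.7, 93.4 and 65.4 RPM at 60 min and 59.8, 50.9, 56.9 and 49.1 RPM at 480 min. In sov it had 52.2, 65.0, 43.0 and 42.7 RPM at 0 min, 20.9, 23.4, 23.0 and 20.8 RPM at 60 min and 48.1, 36.3, 55.4 and 47.6 RPM at 480 min. The 4 libraries at 480 min lay above those at 60 min in sov and below them in vcs, and the ranges overlapped in vcs sov. The change was -0.17 ± 0.16 in vcs sov, -0.65 ± 0.16 in vcs and 1.06 ± 0.16 in sov (log2, SE; adjusted p = 0.397, 0.000207 and 8.65e-09 by limma). By edgeR with TMM factors the change was 0.16 in vcs sov and 0.06 in vcs (adjusted p = 0.358 and 0.722). ABCC3 had a like pattern, with changes of -0.33 ± 0.13, -0.56 ± 0.13 and 0.88 ± 0.13 in vcs sov, vcs and sov (adjusted p = 0.03, 0.000125 and 6.63e-09 by limma), and by edgeR its vcs change was 0.17 (adjusted p = 0.258). Its call in vcs sov was lost with nuclear RPM and by edgeR (adjusted p = 0.12 and 0.954) and without replicates 2, 3 or 4 (adjusted p = 0.149, 0.0876 and 0.0553 by limma).

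PP2CA encodes a protein phosphatase that holds back abscisic acid signalling. It had 63.7, 86.3, 70.3 and 74.9 RPM at 0 min, 23.1, 19.7, 16.9 and 19.8 RPM at 60 min and 9.32, 6.82, 4.89 and 7.93 RPM at 480 min in vcs sov. The 4 vcs libraries had 31.8, 33.0, 27.6 and 27.7 RPM at 0 min, 12.3, 11.9, 10.9 and 10.2 RPM at 60 min and 5.27, 5.74, 5.27 and 6.32 RPM at 480 min. Both courses fell throughout these times, with no overlap between them. The 4 sov libraries had 12.4, 11.9, 9.77 and 10.1 RPM at 0 min, 1.13, 2.48, 1.97 and 2.49 RPM at 60 min and 1.96, 3.85, 4.59 and 3.72 RPM at 480 min. The ranges at 480 and 60 min overlapped in sov through 1 low library at 480 min. The change was -1.42 ± 0.17 in vcs sov, -0.94 ± 0.17 in vcs and 0.67 ± 0.17 in sov (log2, SE; adjusted p = 2.90e-12, 3.53e-07 and 0.000195 by limma), and by edgeR it was -0.26 in vcs (adjusted p = 0.173). PUB19 changed by -0.70 ± 0.26 in vcs sov, -0.50 ± 0.26 in vcs and 0.88 ± 0.26 in sov (adjusted p = 0.0195, 0.0735 and 0.00178 by limma). In vcs it was called lower with the replicate block (adjusted p = 0.0138 by limma) and was 0.23 by edgeR (adjusted p = 0.484). In vcs sov the call was lost by edgeR (-0.41, adjusted p = 0.168) and without replicates 2 or 4 (adjusted p = 0.088 and 0.0517 by limma). In all 4 genotypes its mean at 480 min stayed below 0.5 of that at 0 min.

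ACS7 stood apart in the double mutant. It had 52.2, 39.1, 30.1 and 36.8 RPM at 0 min, 35.5, 32.5, 30.5 and 27.3 RPM at 60 min and 98.7, 70.9, 64.3 and 82.8 RPM at 480 min in vcs sov. The 4 vcs libraries had 34.2, 20, 19.4 and 17.1 RPM at 0 min, 17.9, 16.7, 16.8 and 10.1 RPM at 60 min and 11.3, 11.3, 13.5 and 8.70 RPM at 480 min. The 4 sov libraries had 17.1, 18.5, 12.9 and 16.8 RPM at 0 min, 4.85, 5.85, 6.37 and 6.02 RPM at 60 min and 7.90, 6.45, 7.2 and 8.05 RPM at 480 min. In vcs sov every library at 480 min exceeded every one at 0 and 60 min, which held in neither other genotype. The rise was 1.31 ± 0.20 in vcs sov (log2, SE; adjusted p = 1.77e-08 by limma) and larger than the change in vcs by 1.73 and than that in sov by 0.97 (adjusted p = 6.68e-07 and 0.00291 by limma). CBP60G rose to 71.1 ± 14.2 RPM at 480 min in vcs sov, against 34.0 ± 4.56 RPM at 60 min (SD, n = 4 each; log2 change 1.04, adjusted p = 3.37e-08 by limma). Its change was -0.79 in vcs and -0.25 in sov (adjusted p = 7.28e-06 and 0.145 by limma), and by edgeR -0.07 in vcs and 0.61 in sov (adjusted p = 0.703 and 0.000566).

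The change from 60 to 480 min was lower in vcs than in sov for 93 of the 150 members and higher for 1, AT3G56480. Over all genes tested 9.17% were lower and 9.65% higher in this comparison, and the median difference was -0.72 for the members and 0.00 for all genes (log2). The count lower was 106 with nuclear RPM, 67 with the reference genes and 114 by edgeR. Of all genes, 9.91% were lower and 11.8% higher with nuclear RPM, and 4.39% lower and 23.1% higher with the reference genes. No share of all genes is given beside the edgeR count of 114. Of the 36 members that rose in sov, 30 changed less in vcs and 16 were called lower at 480 than at 60 min there. In vcs sov, 45 members changed less than in sov and 8 more, beside 3.65% and 39.6% of all genes, and 23 of the 36 that rose in sov changed less. The split was 5 more and 66 less with nuclear RPM, 3 and 63 with the reference genes, and 1 and 101 by edgeR. Of all genes, 34.5%, 30.6% and 12.9% changed more under these scalings, and 4.17%, 4.24% and 14.9% less. Without replicate 2 the 53 members that differed between vcs sov and sov were 35. Between vcs sov and vcs, 64 members changed more and 2 less, beside 34.4% and 1.07% of all genes. The 66 were 14 with the reference genes (7 more and 7 less), 21 by edgeR (14 more and 7 less), 32 without replicate 4 and 43 without the 2 libraries whose tube labels were corrected. Of all genes, 6.59% changed more and 3.13% less with the reference genes, and 9.91% and 5.83% by edgeR.

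**Figure D4:**
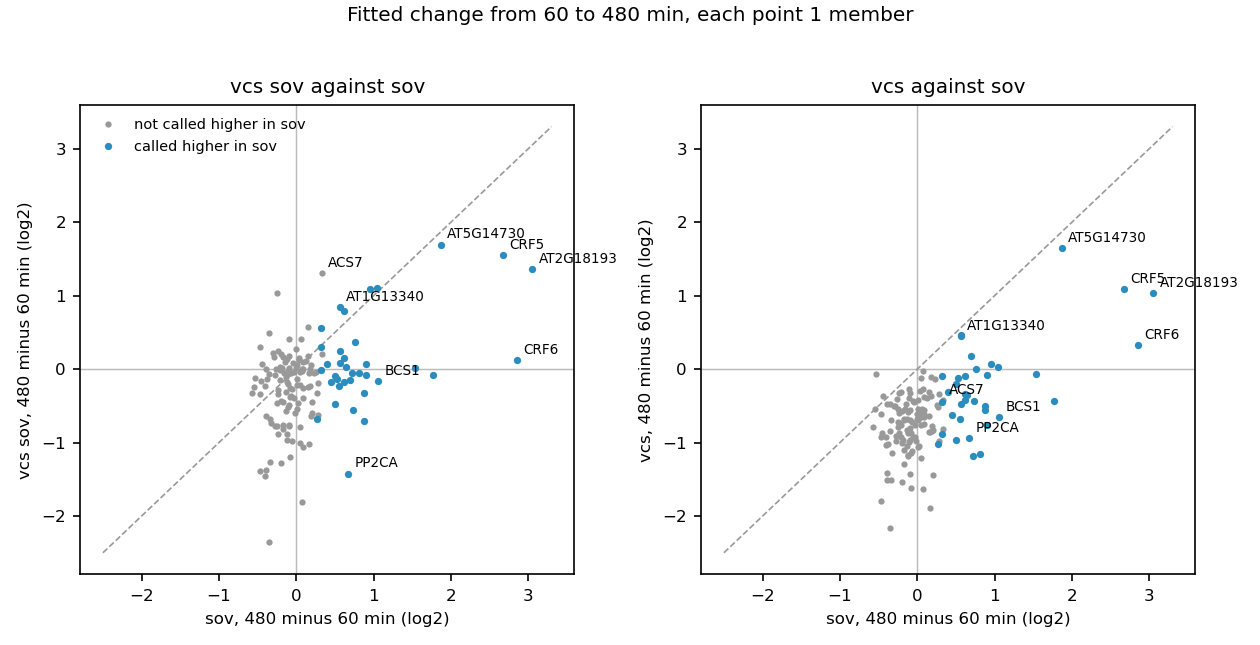
Fitted change from 60 to 480 min (log2) of each of the 150 members in vcs sov (left, y axis) and in vcs (right, y axis) against its change in sov (x axis), with blue for the 36 members called higher in sov and a dashed line of equal change. Most blue points lie below the line in both panels, and ACS7 lies above it in the vcs sov panel.

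Since the fall itself came later in the mutants of VCS, 480 min was also compared with 120 min, a comparison added after the courses were seen. From 120 to 480 min, 16 members rose and 22 fell in vcs sov, 8 rose and 81 fell in vcs, and 27 rose and 14 fell in sov. The shares over all genes were 3.97% higher and 28.0% lower in vcs sov, 2.99% higher and 61.3% lower in vcs, and 2.81% higher and 59.5% lower in sov. The 8 in vcs were CRF5, CRF6, GAT1_2.1, AT2G18193, AT5G14730, AT3G13600, AT5G49665 and AT1G28260, and 7 of them, all but AT1G28260, were among the 36 that rose from 60 to 480 min in sov. GAT1_2.1 rose by 1.13 ± 0.22 in vcs (log2, SE; adjusted p = 8.77e-06 by limma) and its change in vcs sov was 0.20 ± 0.22 (adjusted p = 0.536 by limma). 11 of the 16 in vcs sov were among the 36. In sov the count of 27 was 17 without replicate 3, and in vcs the 8 were 33 by edgeR, beside 4 lower. In vcs sov 31 were higher and 10 lower by edgeR, and 9 higher and 66 lower with the reference genes. In sov 41 were higher and 7 lower with nuclear RPM, 20 higher and 26 lower with the reference genes, and edgeR called 110, all higher. Shares of all genes under these other scalings are not given for 480 against 120 min. With the replicate block the 22 lower in vcs sov were 37 and the 14 lower in sov 26. The median member stood at 0.706 of its 0 min level at 480 min in vcs sov, at 0.43 in vcs, at 0.496 in sov and at 0.532 in WT. Over all genes these medians were 0.734, 0.492, 0.411 and 0.436.

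Compared with 0 min, 8 members were higher and 96 lower at 480 min in vcs sov, 1 higher and 139 lower in vcs, and 6 higher and 129 lower in sov. By edgeR these were 36 and 55 in vcs sov, 18 and 77 in vcs, and 55 and 33 in sov. No share of all genes is given beside these edgeR counts. By limma all genes gave 12.4% higher and 54.2% lower in vcs sov, 6.94% and 74.5% in vcs, and 6.0% and 77.1% in sov. CRF5, CRF6, AT1G43910, AT2G18193, AT5G14730 and AT5G66052 are the 6 in sov, and AT5G14730 is the 1 in vcs. The 8 in vcs sov are ACS7, CBP60G, AT1G13340, AT1G76600, AT2G18193, AT2G18210, AT5G05190 and AT5G14730. CRF5 averaged 20 ± 9.97 RPM at 480 min in vcs sov, against 13.9 ± 0.883 RPM at 0 min (SD, n = 4 each), and was not called there.

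The fall that precedes the plateau was tested in the same way. Between 0 and 60 min, 70 members fell in vcs sov, 97 in vcs and 148 in sov, and 0 rose in any of the 3. Of all genes, 15.6% fell and 3.5% rose in vcs sov, 24.3% fell and 3.3% rose in vcs, and 41.0% fell and 4.31% rose in sov. At an unadjusted p under 0.05, 96 members in vcs sov, 117 in vcs and 148 in sov differed between these times, and edgeR also called 0 higher and 60, 74 and 129 lower. The median change of the members was -0.41 in vcs sov, -0.52 in vcs and -0.93 in sov (log2). Over the other 2819 genes it was -0.37, -0.47 and -0.84. With the reference genes 141 members fell in vcs sov and 146 in vcs. From 0 to 60 min the mean log2 factor of that scaling rose from 0.23 to 0.59 in vcs sov and from -0.14 to 0.24 in vcs. Dividing by it lowers every gene over this time. No share of all genes is given beside the counts with the reference genes or by edgeR, so they have no background. On RPM without replicate 4 the count in vcs sov was 42. 59 members fell in all 3, among them MYC2, the master regulator of jasmonate responses, SARD1, which with CBP60G drives salicylic acid synthesis, NPR4, a salicylic acid receptor, and RR5, a repressor of cytokinin signalling. The share of other genes that fell in all 3 is not given here, so the count of 59 has no background beside it.

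WT at 240 and 30 min, times that the rule did not use, gave a further view of the WT course. It is not an independent one, since WT libraries of the same replicates at other times chose the members. 31 members were higher and 54 lower at 240 than at 30 min, against 4.72% and 66.3% of all genes. With nuclear RPM 47 were higher and 36 lower, with the reference genes 13 and 97, and by edgeR 91 and 8. These scalings called 10.8%, 1.22% and 29.3% of all genes higher, in that order, and 57.2%, 86.8% and 32.6% lower. Of the 31, 25 were among the 36 that rose from 60 to 480 min in sov. CRF5 rose by 2.68 ± 0.22, CRF6 by 2.38 ± 0.18, AT5G14730 by 2.01 ± 0.16 and BCS1 by 1.07 ± 0.16 (log2, SE; adjusted p = 6.68e-20, 3.25e-23, 6.35e-21 and 7.15e-09 by limma). PUB19 changed by -0.05 ± 0.26 (adjusted p = 0.865 by limma), and its WT mean was 1.08 RPM at 120 min, 1.72 RPM at 240 min and 3.1 RPM at 480 min.

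Before the drug, the members were already more abundant when VCS was missing. At 0 min 136 of 150 stood higher in vcs sov and 6 stood lower, compared with sov, beside 64.8% and 12.3% of all genes, and the median difference was 1.47 for the members and 0.62 for all genes (log2). With the reference genes 100 were higher and 17 lower, 100 being the lowest count higher of the scalings tried. Of all genes, 24.0% were then higher and 44.2% lower. AT1G43910 had 108, 138, 81.2 and 121 RPM in vcs sov, against 4.20, 6.20, 6.38 and 5.61 RPM in sov, a difference of 4.20 ± 0.17 (log2, SE; adjusted p = 3.49e-42 by limma). PUB19 was 12.8-fold and BCS1 2.58 (log2) higher in vcs sov. Of the 6 that were lower, CRF2, a further cytokinin response factor, differed by -0.61 and EXO70H1 by -0.61. The mean in vcs was above that in WT for 146 members, with a median ratio of 1.99, beside 1.46 over all genes (no test, since WT at 0 min chose the members). Markers of other tissues also differed at 0 min: 9 xylem markers summed to 243 to 454 RPM in vcs sov, against 84.2 to 105 RPM in sov, and 10 root markers to 65.3 to 81.2 RPM, against 37.8 to 42.9 RPM. 7 markers of green tissue summed to 12191 to 14866 RPM in vcs sov, against 17298 to 23037 RPM in sov, and 9 of the stomatal lineage to 19.3 to 32.7 RPM, against 33.3 to 47.2 RPM. The ranges of 5 phloem markers overlapped, at 90.8 to 149.4 RPM in vcs sov and 110.0 to 121.5 RPM in sov. None of these markers was at 0 in any genotype, and 8 or 9 of the 9 xylem markers reached 1 RPM. Of the 10 root markers 7 reached 1 RPM in vcs sov and 6 in sov, and of the 9 stomatal lineage markers 4 and 6. The part that tissue makeup has in the members' levels was not tested.

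By words in the RefSeq descriptions, 30 members (20%) encode transcription factors, a count that leaves out DREB2A and HAT22, whose descriptions lack these words, against 8.34% of the other genes that met the level and fall conditions and 4.45% of all genes tested. 14 encode kinases (9.33%, against 6.78% and 5.52%), 10 RING, U-box, F-box or ARM repeat proteins (6.67%, against 5.11% and 4.14%), 5 calcium or calmodulin proteins and 21 uncharacterized proteins. Of the 4 members on the ERF, DREB and RAP2 list, CRF5 and CRF6 rose from 60 to 480 min in sov, while DREB2A, an activator of drought and heat genes, changed by -0.10 and CRF2 by -0.13 (adjusted p = 0.764 and 0.565 by limma, against 0.78 and 0.67, adjusted p = 0.0539 and 0.0183, by edgeR). Of 47 ERF, DREB and RAP2 genes tested, 7 rose and 20 fell in vcs sov, 4 rose and 37 fell in vcs, and 6 rose and 24 fell in sov. By edgeR 12 rose and 16 fell in vcs sov, 8 rose and 22 fell in vcs, and 17 rose and 8 fell in sov. Over all genes tested, 8.16% rose and 45.2% fell in vcs sov, 4.2% and 73.6% in vcs, and 4.17% and 71.9% in sov by limma. The edgeR shares were 26.9% and 26.8% in vcs sov, 27.4% and 35.2% in vcs, and 30.3% and 31.6% in sov. These shares are the background for each list below as well. CRF2 fell in vcs by 1.04 on the log2 scale (adjusted p = 2.67e-06 by limma), and by edgeR its change there was -0.47 (adjusted p = 0.0558).

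The 4 WRKY members, WRKY6, WRKY7, WRKY33 and WRKY65, all fell from 60 to 480 min in vcs by limma on RPM, and none was called in sov or in vcs sov. With nuclear RPM WRKY6 and WRKY65 were called higher in sov (adjusted p = 0.0198 and 0.0163 by limma). With the reference genes WRKY7 was lower in sov (-0.42, adjusted p = 0.00409 by limma) and WRKY65 in vcs sov (-0.61, adjusted p = 0.000999 by limma). Of all genes tested 73.6% were lower in vcs, as were 118 of the 150 members. By edgeR none of the 4 was called in vcs, with changes of -0.14, 0.02, -0.24 and 0.32 (adjusted p = 0.399, 0.875, 0.288 and 0.0884). In sov edgeR called WRKY6, WRKY7 and WRKY65 higher, by 1.02, 0.64 and 1.08 (adjusted p = 4.28e-09, 1.31e-06 and 1.26e-08). In vcs sov it called WRKY6 and WRKY7 higher, by 0.51 and 0.48 (adjusted p = 0.00133 and 6.02e-05), and not WRKY33 or WRKY65. WRKY33, an activator of camalexin synthesis and pathogen defence, is the most abundant member, with 154 ± 42.2 RPM in WT at 0 min. The vcs sov libraries held 119 to 195 RPM at 480 min, against 125 to 190 RPM at 60 min. The vcs libraries held 61.1 to 105 RPM at 480 min, against 113 to 190 RPM at 60 min. The sov libraries held 27.6 to 41.4 RPM at 480 min, against 38.2 to 49.3 RPM at 60 min. The 2 times overlapped in vcs sov and in sov, and did not in vcs. The change was 0.02 ± 0.23 in vcs sov, -0.97 ± 0.23 in vcs and -0.18 ± 0.23 in sov (log2, SE; adjusted p = 0.952, 0.000109 and 0.467 by limma), though by edgeR it was 0.68 in sov (adjusted p = 0.00253). Of 54 WRKY genes tested, 6 rose and 18 fell in vcs sov, 3 rose and 42 fell in vcs, and 4 rose and 29 fell in sov. By edgeR 16 rose and 12 fell in vcs sov, 10 rose and 21 fell in vcs, and 21 rose and 15 fell in sov.

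Of 3 members on the NAC list, ANAC087 rose in sov by 0.65 ± 0.21 (log2, SE; adjusted p = 0.00389 by limma), NAC053, a regulator of the proteotoxic stress response, changed by 0.01 and NTL9, a membrane-bound NAC factor, fell by 0.45 (adjusted p = 0.94 and 0.00085 by limma). The rise of ANAC087 was not called with the reference genes (0.39, adjusted p = 0.0547 by limma), and by edgeR NAC053 and NTL9 were higher in sov, by 0.87 and 0.34 (adjusted p = 1.01e-08 and 0.0159). Of the 60 NAC genes tested, 5 rose and 26 fell in vcs sov, 2 rose and 51 fell in vcs, and 6 rose and 32 fell in sov. By edgeR 7 rose and 17 fell in vcs sov, 8 rose and 23 fell in vcs, and 22 rose and 12 fell in sov. ATAF1, a further NAC factor, had a WT ratio of 1.35 and changed by 0.22 in sov (adjusted p = 0.177 by limma, and 1.11 with adjusted p = 1.48e-08 by edgeR). A list of 41 early stress and touch genes holds 5 members, CRF5, CRF6, RHL41, MKK9 and WRKY33. MKK9, a MAP kinase kinase of ethylene and camalexin pathways, changed by -0.06 in vcs sov, -0.86 in vcs and 0.16 in sov (adjusted p = 0.807, 1.58e-05 and 0.424 by limma), and by edgeR -0.16 in vcs and 1.05 in sov (adjusted p = 0.51 and 1.97e-05). Of the 41, 4 rose and 15 fell in vcs sov, 2 rose and 35 fell in vcs, and 4 rose and 25 fell in sov. By edgeR 11 rose and 10 fell in vcs sov, 5 rose and 20 fell in vcs, and 14 rose and 7 fell in sov. Of 19 salicylic acid defence genes tested, 4 rose and 4 fell in vcs sov, 2 rose and 13 fell in vcs, and 2 rose and 8 fell in sov. By edgeR 7 rose and 2 fell in vcs sov, 4 rose and 5 fell in vcs, and 10 rose and 3 fell in sov. The 3 members on that list, SARD1, NPR4 and CBP60G, fell in vcs by 1.02, 1.01 and 0.79 (adjusted p = 8.38e-06, 9.39e-10 and 7.28e-06 by limma), and by edgeR NPR4 alone of the 3 was called there. Over all genes, 73.6% were lower in vcs by limma and 35.2% by edgeR.

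Several lists held few or no members. A single member, PP2CA, stood on a list of 39 abscisic acid and dehydration genes tested, of which 3 rose and 13 fell in vcs sov, 4 rose and 20 fell in vcs, and 5 rose and 15 fell in sov. By edgeR 6 rose and 7 fell in vcs sov, 10 rose and 7 fell in vcs, and 15 rose and 7 fell in sov. None of 14 mitochondrial retrograde genes tested was a member, and 4 of them rose and 5 fell in vcs sov, 4 rose and 6 fell in vcs, and 5 rose and 4 fell in sov. By edgeR 7 rose and 3 fell in vcs sov, 8 rose and 4 fell in vcs, and 10 rose and 2 fell in sov. RR5 was the sole type-A response regulator, and of 9 such genes tested 7 fell in vcs sov, 9 in vcs and 7 in sov by limma, against 7, 8 and 6 by edgeR. Its own change was -0.73 ± 0.17 in vcs sov, -1.15 ± 0.17 in vcs and -0.33 ± 0.17 in sov (log2, SE; adjusted p = 0.000138, 2.37e-09 and 0.0678 by limma), and with the replicate block it was called lower in sov (adjusted p = 0.0274 by limma).

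Over all 150 members the steepest fall after 60 min on RPM was that of AT5G22920, a RING-type zinc finger protein by its RefSeq description, which changed by -2.35 ± 0.20 in vcs sov and -2.16 ± 0.20 in vcs (log2, SE; adjusted p = 4.26e-19 and 9.51e-18 by limma). UGT73B2, a flavonol glucosyltransferase, changed by -1.01 ± 0.27 in vcs sov, -1.89 ± 0.27 in vcs and 0.16 ± 0.27 in sov (log2, SE; adjusted p = 0.000759, 5.68e-10 and 0.585 by limma). PLPB, a PAS and LOV domain protein, changed by -1.38, -1.51 and -0.39 in vcs sov, vcs and sov (adjusted p = 1.36e-15, 3.43e-18 and 0.00719 by limma), and by edgeR its change in sov was 0.48 (adjusted p = 0.00383). ACHT5, an atypical chloroplast thioredoxin, fell by 1.44, GH3.17, which conjugates auxin to amino acids, by 1.41 and HAT22, a homeodomain-leucine zipper factor, by 1.21 in vcs (adjusted p = 3.30e-13, 1.40e-08 and 7.24e-11 by limma). In sov the changes of these 3 were 0.20, -0.39 and 0.05 (adjusted p = 0.261, 0.101 and 0.8 by limma). GH3.17 was called lower in sov with the replicate block (adjusted p = 0.0313 by limma), and by edgeR ACHT5 and HAT22 were higher there, by 1.10 and 0.91 (adjusted p = 2.96e-07 and 5.36e-08).

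Many of the members' genes have a single exon. 41 of the 150 (27.3%) have a single exon, against 18.0% of the other genes that met the level and fall conditions and 15.3% of all genes tested, and the median exon number was 3, against 4 and 5. Among the first 50 ranks 18 (36.0%) have a single exon. In the promoter windows of 250 bases before to 50 after the gene start, the G-box CACGTG stood in 11 of the first 50 members (22.0%) and in 16 of all 150 (10.7%), against 8.82% of 2802 other genes that met the conditions and 8.87% of 19554 protein-coding genes tested. ACGTGTC stood in 8 of the first 50 (16%) and in 13 of all (8.67%), against 4.71% and 5.03%, and the joined CACGTGTC in 6 (12%) and 7 (4.67%), against 2.75% and 2.9%. PP2CA and PI4K GAMMA 7, a kinase named for phosphoinositides, hold ACGTGTC outside the joined form. The heat shock letters GAANNTTC stood in 32 members (21.3%), against 10.4% and 11.5%, the GCC-box GCCGCC, which ERF factors bind, in 7 (4.67%), against 2.25% and 2.6%, and the W-box TTGACC, which WRKY factors bind, in 29 (19.3%), against 13.1% and 14.5%. The other W-box form searched, TTGACT, stood in 35 members (23.3%), close to the 21.3% and 22.2% of the same 2 backgrounds. The rapid stress response letters CGCGTT stood in 1 member (0.667%), against 4.18% and 3.86%. Each was searched on both strands. 18 sets of letters were searched in all besides the joined form, which was added after the promoters were seen, and no test was made: a match shows letters in a window and nothing of a factor.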

How the data were processed

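Seedling RNA was sequenced after plant ribosomal RNA depletion as stranded libraries, per the labels' protocols, and the submitters' processing notes name TopHat2 2.0.12 with Bowtie2 2.2.3, HTSeq 0.6.1, SAMtools, FastQC, R 3.1.0 and the TAIR10 build. The annotation and the strand setting of the counting are not given in the sources used here, so reads of overlapping or antisense genes cannot be told apart. The authors deposited RPM for 28775 genes in 128 libraries. Reads were recovered from the steps of the low values: 100% of values were whole within 0.001 reads. The authors also deposited group means as a ratio to 0 min of the same genotype, after their own normalization, which are printed only where that table is named. The total per library was 11.5 to 37.3 M reads (median 21.7 M). Floors of 3 reads cover counting error only.

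The 20070 genes whose mean reached 1 RPM in any group were fitted as log2(RPM + 0.5) by limma 3.58.1 in R 4.3.3, with 1 mean for each of 32 groups and without the replicate number, and p-values were adjusted by Benjamini-Hochberg over all genes tested, with 0.05 as threshold. Alternatives were RPM over nuclear genes, scaling to 50 nuclear genes that reach 10 RPM before the drug in all genotypes and have the highest mean slope up to 120 min, edgeR 4.0.16 with TMM on recovered read counts, a pseudocount of 0.1, no filter, a replicate block and leaving out each replicate. Members and gene lists were chosen with earlier results of these data known. The 480 against 120 min, 480 against 0 min, 0 min and vcs sov against vcs comparisons were added after the data were seen. No test was made against WT over 60 to 480 min, since WT chose the members.

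Named genes were the 25 members with a symbol that had the highest WT ratio, the 6 largest and 6 smallest changes in each other genotype, members of the lists, and the genes next to the threshold. Further members were named after their values were seen. Replicate numbers paired the libraries at 480 and 60 min: deviations of same-numbered libraries from their group means correlated at 0.122 to 0.629 in all 16 courses. The table of library sizes was not used. Fitting was tested on simulated data.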

Additional observations from a re-analysis of the deposited data

Results flagged for a closer look

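The change from 60 to 480 min differed between genotypes, by limma's test of the difference, for 94 members between vcs and sov, for 53 between vcs sov and sov, and for 66 between vcs sov and vcs. Of the members given library by library, the difference between vcs sov and sov (log2) was -1.12 for CRF5, -2.73 for CRF6, -1.69 for AT2G18193, -1.52 for AT1G43910, -1.22 for BCS1, -1.21 for ABCC3, -1.58 for PUB19, -2.09 for PP2CA and 0.97 for ACS7. Between vcs and sov it was -1.58 for CRF5, -2.53 for CRF6, -2.02 for AT2G18193, -1.59 for AT1G43910, -1.71 for BCS1, -1.43 for ABCC3, -1.38 for PUB19, -1.61 for PP2CA and -0.76 for ACS7.

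In 8 of 132 groups of 4 libraries, 1 library lay far from the other 3 by Dixon's criterion, where chance gives about 1 in 20. In vcs at 0 min replicate 1 stood high for 3 members: 146 RPM of BCS1, against 78.3 to 83.3 RPM in the others, 37.7 RPM of PUB19, against 18.5 to 21.0 RPM, and 34.2 RPM of ACS7, against 17.1 to 20 RPM. In vcs at 60 min replicate 4 had 10.1 RPM of ACS7, against 16.7 to 17.9 RPM in the others. In sov, replicate 1 at 0 min had 47.2 RPM of ABCC3, against 65.9 to 67.0 RPM, and replicate 3 at 60 min had 49.3 RPM of WRKY33, against 38.2 to 40.0 RPM. In WT at 60 min replicate 2 had 5.03 RPM of ACS7, against 6.85 to 7.08 RPM, and 27.9 RPM of WRKY33, against 42.4 to 44.7 RPM.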

How the results depend on the processing

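Scaling moved the counts most, and the cause was not tested. With nuclear RPM, members called higher at 480 than at 60 min were 56 in sov, at 480 than at 120 min 41 in sov, at 480 than at 0 min 3 in vcs and 11 in sov, and at 240 than at 30 min 47 in WT. Chosen again on nuclear RPM, the rule took 97 of the same members. With the reference genes, 9 were higher at 480 than at 60 min in vcs sov and 23 in sov, 9 at 480 than at 120 min in vcs sov, and 13 at 240 than at 30 min in WT. At 480 against 0 min, limma then called 1 higher in vcs sov and 0 in vcs. At 60 against 0 min, 141 were lower in vcs sov and 146 in vcs, with no share of all genes beside them, and 14 changes differed between vcs sov and vcs. With edgeR, 48, 35 and 141 were higher at 480 than at 60 min in vcs sov, vcs and sov, 31, 33 and 110 at 480 than at 120 min, 36, 18 and 55 at 480 than at 0 min, and 91 at 240 than at 30 min in WT. Of all genes, edgeR called 26.9%, 27.4% and 30.3% higher at 480 than at 60 min in vcs sov, vcs and sov. The share at 240 against 30 min in WT was 29.3%. By edgeR 102 changes differed between vcs sov and sov and 21 between vcs sov and vcs, and 43 differed between vcs sov and vcs without the 2 corrected libraries. In the authors' deposited means 14, 5, 31 and 39 members were higher at 480 than at 60 min in vcs sov, vcs, sov and WT. Over all genes there the shares were 4.51%, 2.39%, 3.07% and 3.11%.

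Leaving out each replicate, members higher at 480 than at 60 min were 11 to 15 in vcs sov, 3 to 4 in vcs and 30 to 33 in sov, at 480 than at 120 min 17 to 26 in sov, and at 480 than at 0 min 5 to 9 in vcs sov (5 without replicate 4) and 1 to 2 in vcs (2 without replicate 1). Members lower at 60 than at 0 min were 42 to 73 in vcs sov, and differing changes were 35 to 54 between vcs sov and sov and 32 to 63 between vcs sov and vcs. The replicate block gave 2 members higher at 480 than at 0 min in vcs, 18, 6 and 40 higher at 480 than at 60 min in vcs sov, vcs and sov, 29 lower there in sov, 37 and 26 lower at 480 than at 120 min in vcs sov and sov, and 4 whose change was smaller in vcs sov than in vcs, and moved no other count by over 1.5 times. With a call on either side, the fitted change from 60 to 480 min changed sign by edgeR for AT1G43910 (0.66), BCS1 (0.063), ABCC3 (0.17) and ACS7 (0.28) in vcs and WRKY33 (0.68) in sov, and with the reference genes for AT1G43910 in vcs sov (-0.42). Of the other checks on the members given by library, 306 kept direction and side of the threshold, 12 gained a call and 16 lost one, and 12 changed sign with no call on either side. These 12 were by edgeR BCS1 in vcs sov (0.16) and PUB19 in vcs (0.23), with nuclear RPM AT1G43910 in vcs (0.15) and WRKY33 in sov (0.05), with the reference genes CRF6 and WRKY33 in vcs sov (-0.29 and -0.42), and with libraries left out CRF6, WRKY33 and AT1G43910 in vcs sov and AT1G43910 in vcs (-0.12 to 0.03). Members near 1 RPM rest on few reads, with 3 reads at up to 0.261 RPM.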
